A study of Mus musculus with 8 samples.

Results

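Short loops were the loops whose anchor midpoints lay less than 20 kb apart, and 16821 of the 249200 distinct loops in the 4 lists met this limit. They were chosen by distance alone, without regard to the factor, the line or the value of the loop. The lists came from Hi-ChIP, which ligates DNA ends that lie close together in the nucleus and then pulls down the fragments bound by a chosen protein. FOXA1 and HNF4G were each profiled in a primary pancreatic tumor line derived from KPC mice (tumor) and in its matched line from a liver metastasis (liver mets). KPC mice are genetically engineered to develop pancreatic cancer, so the alterations of that model were common to all 4 groups although the genotype label read WT. All cells were untreated, were grown in DMEM with serum and stood for 1 line per context. Each group had 2 replicates that shared 1 list, so no spread between replicates and no test between groups could be calculated. The 95% intervals in parentheses reflect the counts alone. They take each loop as an independent draw, which loops with a common anchor are not, and leave out any difference between cultures. Intervals of ratios and differences between lists also take the 2 lists as separate draws, although many loops are in both. The depth of the libraries is unknown here. As a check of the label, 7 of 8 epithelial and ductal marker genes had an anchor within 2 kb of a start, 6 of them with a short loop, against 0 of 12 acinar, hematopoietic and endothelial markers. These are contacts and not expression levels.

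FOXA1 is a forkhead pioneer factor that binds enhancers of endodermal tissues, and HNF4G is a nuclear receptor of the same tissues. Contacts over a few kilobases join a promoter to elements inside its own gene, join alternative promoters of a gene, or join promoters of adjacent genes. At such distances DNA ends meet often without any bound protein, and ligation can be read only where the restriction enzyme cuts, which for DpnII is the sequence GATC.

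The anchors were built on this enzyme. Both ends of all 30542 anchors lay within 1 base of a GATC in the mm10 (GRCm38) genome. The sites inside the anchors were counted because they set how many ends a pair offers for ligation. Stretches of 150 bases with the most sites outside exons are shown, with GATC in capitals, for anchors of neighboring-promoter loops present in all 4 lists (Sdc4 and Cirbp) and of loops present in both liver mets lists only (E2f2 and Sult1a1). The Sdc4 stretch (chr2:164442162-164442311, plus strand, intron of Sdc4) held 5 sites and its anchor 38 in 12967 bp. The Cirbp stretch (chr10:80165663-80165812, between genes) held 3 sites and its anchor 22 in 11470 bp. The E2f2 stretch (chr4:136177313-136177462, intron of E2f2) held 2 sites and its anchor 4 in 2661 bp. The Sult1a1 stretch (chr7:126678848-126678997, between genes) held 1 site, the only one in its anchor of 1515 bp.
Sdc4: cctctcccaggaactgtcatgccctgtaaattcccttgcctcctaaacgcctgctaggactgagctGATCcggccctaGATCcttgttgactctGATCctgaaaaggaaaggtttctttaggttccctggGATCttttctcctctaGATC
Cirbp: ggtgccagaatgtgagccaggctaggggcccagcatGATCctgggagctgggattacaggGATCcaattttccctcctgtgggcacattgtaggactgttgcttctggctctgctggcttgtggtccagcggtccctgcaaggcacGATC
E2f2: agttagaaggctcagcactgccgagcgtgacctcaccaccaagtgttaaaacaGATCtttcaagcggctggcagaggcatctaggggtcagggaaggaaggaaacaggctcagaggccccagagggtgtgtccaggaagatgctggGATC
Sult1a1: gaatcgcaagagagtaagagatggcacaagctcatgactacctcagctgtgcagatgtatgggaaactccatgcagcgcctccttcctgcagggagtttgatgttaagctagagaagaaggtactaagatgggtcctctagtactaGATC

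The binding motifs of the 2 factors were searched on both strands as TGTTTAC for FOXA and CAAAGNNCA for HNF4. Windows around matches are shown, with the motif in capitals, for a loop listed in liver mets only (Ppard), because its anchors carried letters of both factors. The Ppard intron anchor held 2 HNF4 matches (chr17:28257480-28257512 and chr17:28257940-28257972, both on the minus strand). Its start anchor held 2 FOXA matches (chr17:28270431-28270461 and chr17:28272584-28272614, both on the plus strand). All 4 windows lay in introns of Ppard. A match is a description of the sequence and not a bound site.
Ppard HNF4 first: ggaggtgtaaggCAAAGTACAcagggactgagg
Ppard HNF4 second: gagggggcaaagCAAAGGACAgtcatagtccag
Ppard FOXA first: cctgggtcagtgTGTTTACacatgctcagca
Ppard FOXA second: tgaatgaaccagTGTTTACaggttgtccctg

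The FOXA letters were found in 36.6% of all anchors and the HNF4 letters in 46.9%. Over the anchors of short loops in both FOXA1 lists only, FOXA matches came to 0.181 per kb and HNF4 matches to 0.251 per kb. The loops in both HNF4G lists only had 0.166 and 0.256 per kb. Short loops in all 4 lists had 0.149 and 0.252 per kb, and anchor pairs in no list had 0.180 and 0.252 per kb. All anchors together had 0.179 and 0.256 per kb. These rates are descriptions, and no difference between them was tested.

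With FOXA1, liver mets had 12723 short loops, which was 10.1% of the list, and tumor had 12079 (11.6%). With HNF4G, liver mets had 11019 (14.1%) and tumor 9779 (12.8%). The shortest loop of any list joined midpoints 5 kb apart, and the median span was 11.4 to 11.7 kb. Each loop also carried a value, read here as the −log10 of an adjusted p and capped at 20. Most short loops had low values, with medians of 0.188, 0.261, 0.304 and 0.323 in the order given. On this reading 12.3% to 14.5% of short loops had an adjusted p of 0.05 or less, against 61.1% to 65.0% of loops of 20 kb or more. The size of this gap depended on the limit. At values of 2 or more the shares were 4.56% to 6.80% of short loops and 7.64% to 9.61% of longer ones. The 2 most frequent values of a list held 25.3% to 32.4% of all its loops, but 1.56% to 6.80% of its short loops. At the ceiling of 20 short loops were common, and they made up 23.2% to 34.2% of the loops there.

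Short loops recurred. Of the 16821 short loops, 5043 (29.98%, 95% interval 29.3% to 30.7%) were in all 4 lists, 4751 (28.2%) in 3, 4148 (24.7%) in 2 and 2879 (17.1%) in 1. Of the loops of 20 kb or more, 3.50% were in all 4 lists and 69.1% in 1. Although short loops were a small part of all distinct loops, they made up 38.3% of the loops found in all 4 lists. The most frequent pattern after that was absence from HNF4G tumor alone, with 1825 loops, and the least frequent was presence in both HNF4G lists only, with 352.

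**Figure D1:**
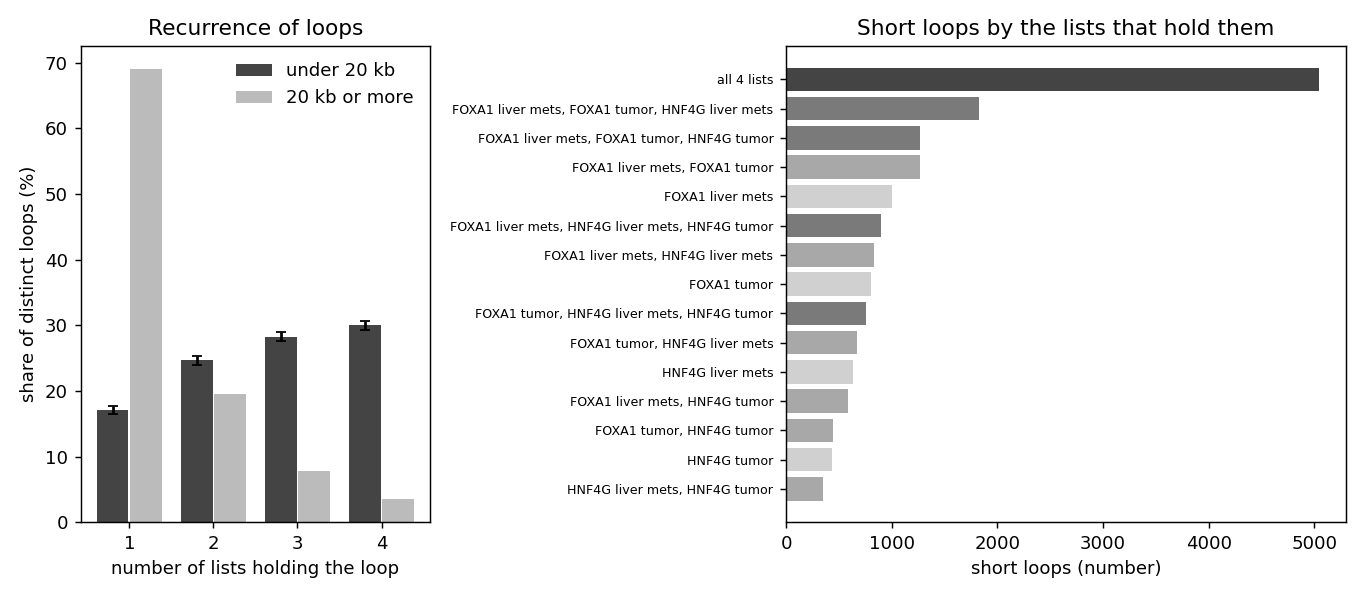
Left, share of distinct loops (%) found in 1, 2, 3 or 4 lists for loops under 20 kb (dark, with 95% Wilson intervals) and of 20 kb or more (light). Right, number of short loops by the exact lists that held them, darker for more lists; the bar for all 4 lists reaches 5043, and the next, without HNF4G tumor, 1825.

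The lines were compared within each factor to ask whether short contacts changed with metastasis. For FOXA1 the ratio of short loops in liver mets to tumor was 1.05 (1.03 to 1.08), and for HNF4G it was 1.13 (1.10 to 1.16). Over all loops these ratios were 1.21 and 1.02, so short loops stood below the ratio of the whole lists for FOXA1 and above it for HNF4G. The FOXA1 lists shared 9401 short loops, which was 73.9% of those in liver mets and 77.8% of those in tumor. The HNF4G lists shared 7051, which was 63.99% of those in liver mets and 72.1% of those in tumor. Of the short loops in either FOXA1 list, 21.6% were in liver mets only and 17.4% in tumor only, where the background over all loops was 44.3% and 32.8%. Of those in either HNF4G list, 28.9% were in liver mets only and 19.8% in tumor only, against 40.7% and 39.3% over all loops. Among pairs with 12 or more GATC sites inside the anchors, a limit set after the data were seen, the ratio was 1.02 (0.980 to 1.07) for FOXA1 and 1.03 (0.983 to 1.08) for HNF4G. Most such pairs were listed in every list, which leaves little room for a ratio away from 1. The FOXA1 interval included its ratio over all sites, 1.05, and the HNF4G interval lay below its ratio over all sites, 1.13.

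The factors were compared within each line. In tumor, FOXA1 had 1.24 (1.20 to 1.27) short loops for each HNF4G one, and in liver mets 1.15 (1.13 to 1.18). The ratios over all loops were higher and in the reverse order, with 1.36 in tumor and 1.61 in liver mets. The tumor lists shared 7508 short loops, which was 62.2% of FOXA1 and 76.8% of HNF4G. The liver mets lists shared 8603, which was 67.6% of FOXA1 and 78.1% of HNF4G. Of short loops in either tumor list, 31.9% were in FOXA1 only and 15.8% in HNF4G only, with backgrounds of 49.4% and 31.0% over all loops. In liver mets these shares were 27.2% and 15.96%, with backgrounds of 53.7% and 25.6%. In all 4 comparisons the share found in 1 list only lay below the background. These differences from the background were not tested.

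Loops absent from another list had low values where they were present. Of the 865 FOXA1 liver mets short loops with a value of 2 or more, 14 (1.62%, 0.967% to 2.70%) were not listed in FOXA1 tumor, while 3308 of the 11858 below 2 (27.9%) were not. Of the 506 HNF4G tumor short loops at 2 or more, 10 (1.98%) were missing from HNF4G liver mets, against 29.3% of those below 2. Between any 2 lists at most 4.05% of short loops at 2 or more were missing, and 21.2% to 41.2% of those below 2. A value of 2 or more in 1 list and absence from the other 3 was seen for 1 loop of FOXA1 liver mets and 1 of HNF4G tumor, and for 0 of 636 in FOXA1 tumor and 0 of 502 in HNF4G liver mets. Presence in all 4 lists did not mean a high value in each, since 174 of the 5043 such loops (3.45%) reached 2 in every list and their median lowest value was 0.146.

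**Figure D2:**
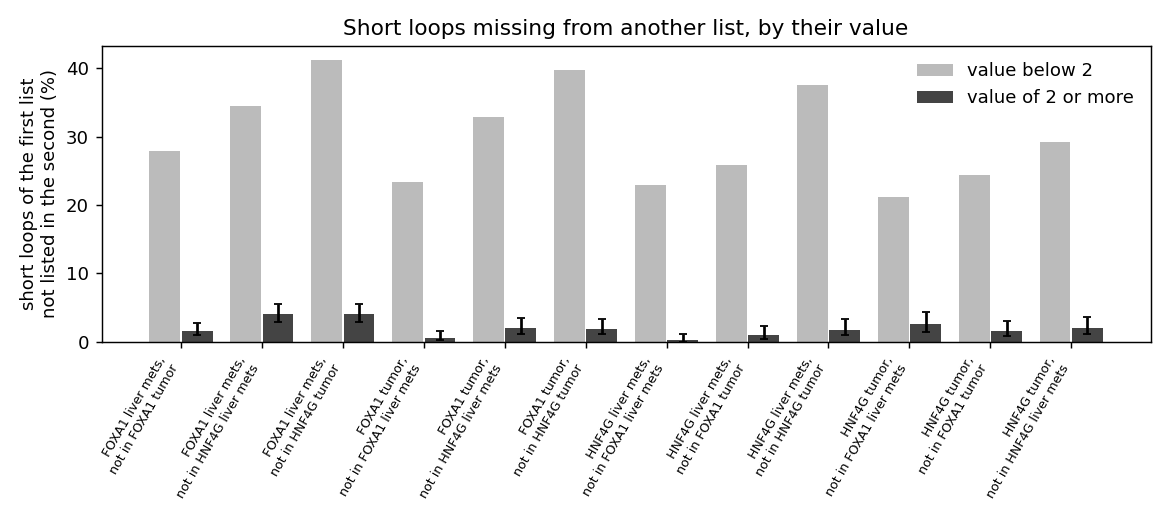
Share (%) of the short loops of a first list that were not listed in a second, for loops with a value below 2 (light) and of 2 or more (dark, with 95% Wilson intervals) in the first list. All 12 dark bars lie at or below 4.05%, and all light bars at or above 21.2%.

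The 30542 anchors gave 18029 pairs between the shortest loop span and 20 kb, and each pair was followed through the lists. Of these pairs 1208 (6.70%) were in no list, 11778 (65.3%) in 1 to 3 lists and 5043 (27.97%) in all 4. The share in all 4 lists fell with distance, from 40.4% (38.7% to 42.1%) at 5 to 7.5 kb to 18.1% (16.7% to 19.5%) at 17.5 to 20 kb. It rose with the number of GATC sites inside the 2 anchors, from 1.98% (1.35% to 2.88%) of pairs with under 4 sites to 27.1% with 8 to 11 and 89.4% (86.2% to 91.9%) with 24 or more. The share of pairs in no list went from 25.7% to 0% over the same classes. The lists converged there. With 24 or more sites FOXA1 liver mets listed 99.1% of pairs and HNF4G tumor 94.2%, and with under 4 sites 38.8% and 21.9%. Wider anchors hold more sites, and both moved with the listing. Among pairs with 8 to 11 sites, 17.3% of those with the narrowest anchors and 37.5% of those with the widest were in all 4 lists, and among pairs with the narrowest anchors 4.71% of those with the fewest sites and 19.2% of those with the most. The part that anchor width, sites and the strength of the factor's signal had in these shares was not tested.

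**Figure D3:**
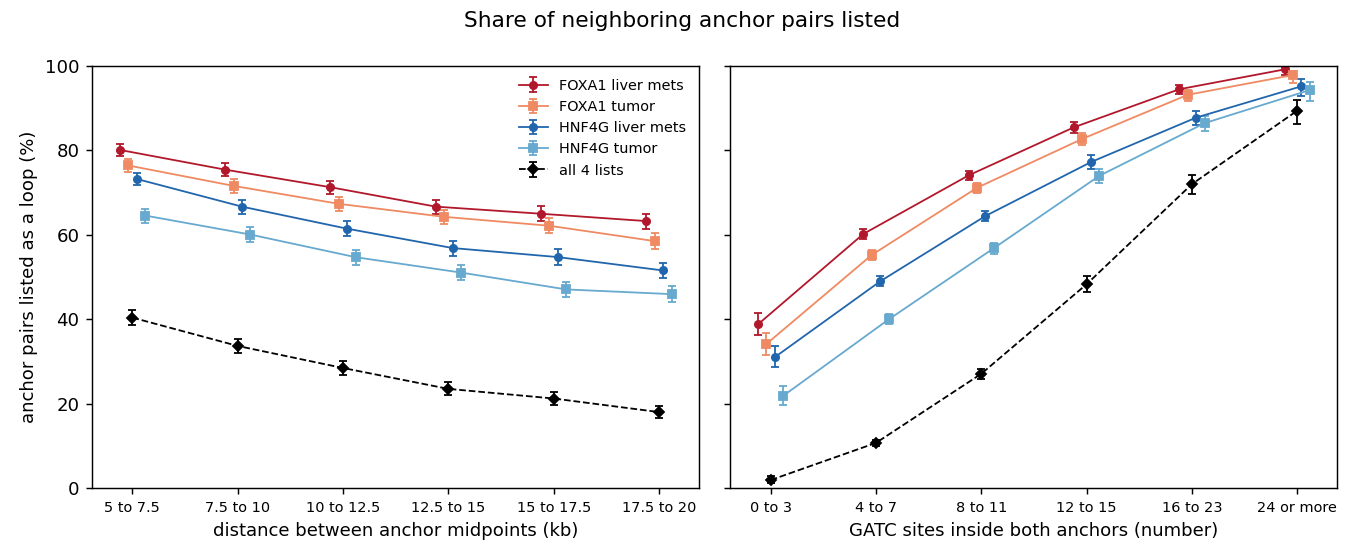
Share of anchor pairs under 20 kb that were listed as a loop (%), by distance between midpoints (left) and by GATC sites inside both anchors (right), for each list and for all 4 lists together (black diamonds), with 95% Wilson intervals. Every curve falls with distance and rises with sites, and FOXA1 liver mets lies highest and HNF4G tumor lowest of the 4 lists in every class.

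Most pairs absent from a list had both anchors in use there. With FOXA1, 5306 of the 18029 pairs (29.4%) were not listed in liver mets and 5950 (33.0%) in tumor. With HNF4G, 7010 (38.9%) were not listed in liver mets and 8250 (45.8%) in tumor. Both anchors of these pairs were used by other loops of the same list in 95.7%, 93.2%, 87.4% and 84.4% of cases, in the same order. Most anchors were in use in each list, with 29572, 29091, 27730 and 27239 of all 30542, so high shares are no trait of these pairs. Pairs missing from a single list and present in the other 3 numbered 755, 901, 1270 and 1825. The less used of their anchors took part in a median of 7, 6, 4 and 3 loops of that list, while for pairs in all 4 lists it took part in 10, 8, 7 and 6 loops beside the one counted. Of the 11990 pairs with no other anchor between them 6.11% were in no list, and of the 6039 with at least 1 between 7.87%. This order depended on distance, since at 15 to 20 kb the shares were 11.1% and 8.94%. Sequence that recurs in the genome moved with the listing too. An anchor with over 20% of its 31-base stretches found again elsewhere occurred in 3.57% of pairs in all 4 lists and in 11.6% of pairs in no list.

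Each pair was then classed by what its anchors overlapped, a promoter anchor being one within 2 kb of any annotated start of a gene. At least 1 promoter anchor was present in 10977 short loops (65.3%, 64.5% to 66.0%) and in 11643 of all 18029 pairs, a like share. Promoter anchors made up 44.1% of anchors in short loops and 45.2% of all anchors. With all annotated starts counted, 2932 short loops (17.4%) joined a promoter to the body of its own gene, out of 3108 such pairs. Promoters of neighboring genes were joined by 2602 (15.5%), out of 2753 such pairs. Both classes took like parts of the short loops and of all pairs. In 1327 (7.89%) both anchors lay within 2 kb of a start of the same gene, here called same-gene promoters. Where such anchors lie close together this can be 1 and the same start, so the class is not limited to alternative promoters. A promoter and the body of another gene were joined by 1298 (7.72%), and a promoter and intergenic sequence by 2818 (16.8%). The remaining loops ran within 1 gene body (2561, 15.2%) or had no promoter otherwise (3283, 19.5%).

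Same-gene promoters recurred most. Of the pairs of this class 45.5% (42.9% to 48.2%) were in all 4 lists. The share was 32.9% (31.3% to 34.6%) from promoter to own gene body and 30.8% (29.1% to 32.6%) between neighboring promoters. It was 27.5% from promoter to intergenic sequence and 23.8% (21.6% to 26.1%) from promoter to another gene's body. Pairs within 1 gene body had 22.7% (21.2% to 24.3%), and the other pairs without a promoter 20.9% (19.6% to 22.3%). These classes differed in span, and their median cut sites per pair ran from 7 to 10. At 5 to 10 kb the shares were 40.9% for own gene body, 40.3% for neighboring promoters and 30.6% within 1 gene body. At 10 to 20 kb they were 27.4%, 27.5% and 17.6%. In the classes by sites that follow, span was not held equal. Among pairs with 12 to 15 sites the shares were 63.1% (56.9% to 68.8%) for same-gene promoters and 55.7% (51.2% to 60.2%) for own gene body. They were 47.5% (42.9% to 52.2%) for neighboring promoters, 46.5% (41.1% to 52.0%) within 1 gene body and 45.2% for promoter and intergenic sequence. Other pairs without a promoter had 41.8% (37.3% to 46.5%), and a promoter and another gene's body 37.6% (30.8% to 44.8%). With 16 or more sites same-gene promoters (86.6%, 82.3% to 90.1%) and own gene body (82.7%, 78.7% to 86.0%) again had the highest shares. Neighboring promoters (69.9%, 65.1% to 74.3%) then lay no higher than pairs within 1 gene body (74.2%, 68.1% to 79.5%) or other pairs without a promoter (71.6%, 65.7% to 76.8%). The median span there was 14.5 kb for neighboring promoters and 10.8 kb within 1 gene body. With under 4 sites all classes lay between 1.23% and 2.84%, so at few sites no order could be seen.

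**Figure D4:**
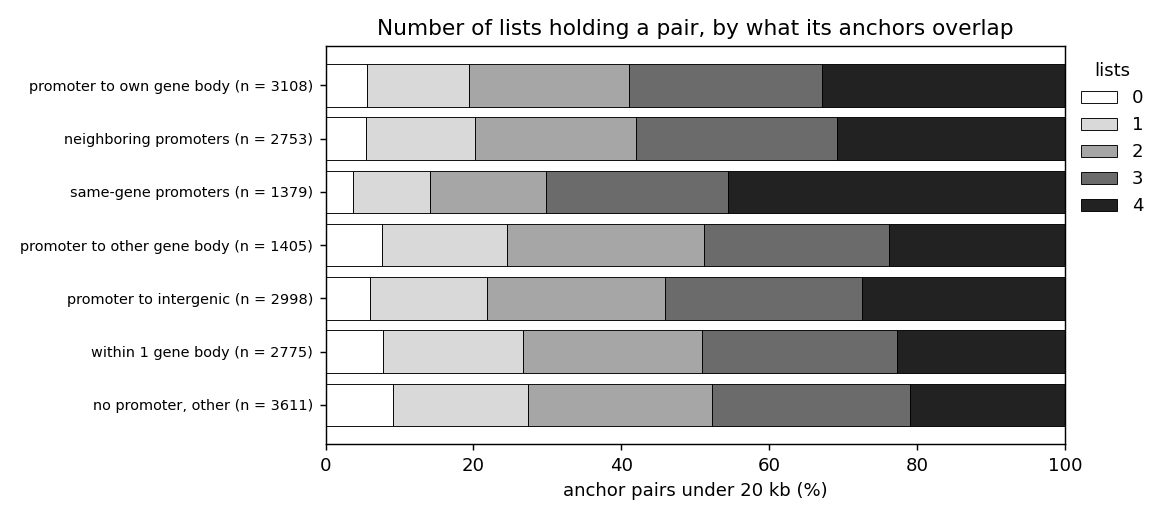
Share of anchor pairs under 20 kb (%) held by 0, 1, 2, 3 or 4 lists (white to black), for each class of pair, with the number of pairs beside the class name. The black part is widest for same-gene promoters, at 45.5%, and narrowest for pairs without a promoter that do not lie within 1 gene body, at 20.9%.

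Within the class of promoter and own gene body, the body anchor lay wholly in introns in 2022 short loops (69.0%) and touched an exon in 910 (31.0%). Both kinds were in all 4 lists at like shares, 32.7% (30.8% to 34.8%) and 33.2% (30.3% to 36.2%) of their pairs. The start at the promoter anchor was the outermost start of the gene in 1671 loops (57.0%) and an internal start only in 1261 (43.0%), with 33.9% and 31.6% of pairs in all 4 lists. With the outermost start of each gene alone, own gene body fell to 14.1% and neighboring promoters to 12.9% of short loops. Among neighboring promoters of protein-coding genes, 903 loops joined genes in tandem, 474 divergent genes and 443 convergent genes. Their pairs were in all 4 lists in 31.2% (28.4% to 34.3%), 30.2% (26.3% to 34.4%) and 33.4% (29.3% to 37.8%) of cases, and these intervals overlapped. In single lists the shares lay further apart in places. With HNF4G in liver mets, where they lay furthest apart, 70.9% of convergent, 62.2% of divergent and 62.1% of tandem pairs were listed. In the same order, FOXA1 had 72.9%, 70.6% and 68.6% in liver mets and 70.9%, 67.8% and 69.6% in tumor. HNF4G in tumor had 63.6%, 59.8% and 60.2%. These differences were not tested.

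HNF4G short loops lay at promoters more often than FOXA1 ones, but the HNF4G lists also had fewer short loops. The share with a promoter anchor rose as the lists got smaller. It was 65.9% of 12723 in FOXA1 liver mets and 66.4% of 12079 in FOXA1 tumor. In HNF4G it was 67.5% of 11019 in liver mets and 69.3% of 9779 in tumor. The part of list size in these differences was not tested. Promoter anchors were present in 66.4% of FOXA1 tumor short loops and 69.3% of HNF4G tumor ones, a difference of -2.92 points (-4.16 to -1.68). In liver mets the difference was -1.61 points (-2.81 to -0.409). Between lines, HNF4G liver mets lay below tumor by -1.75 points (-3.02 to -0.489), and for FOXA1 the interval of -1.62 to 0.734 points included 0. The difference was plainer in loops of 1 factor. Of the 1263 short loops in both FOXA1 lists only, 58.3% (55.5% to 61.0%) had a promoter anchor, and of the 352 in both HNF4G lists only 68.5% (63.4% to 73.1%). Of loops in both liver mets lists only 60.4% (57.1% to 63.7%) had one, of loops in both tumor lists only 68.9% (64.4% to 73.0%), and of loops in all 4 lists 72.5%. Loops in both HNF4G lists only joined a promoter to another gene's body in 12.8% of cases (9.69% to 16.7%), against 7.44% (6.12% to 9.02%) of loops in both FOXA1 lists only.

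The highest loops between a promoter and its own gene were led by Myh9, a heavy chain of nonmuscle myosin, at 20 in every list. It joined chr15:77815146-77825605 to an intronic anchor at chr15:77826598-77831414. The start at the first anchor was an internal one, and the outermost start of Myh9 lay 16570 bp from the edge of that anchor. Lasp1, which encodes an actin-binding LIM protein, had values of 11.3 and 12.7 with FOXA1 and 5.64 and 8.48 with HNF4G, liver mets before tumor as in all values that follow, for a contact from its outermost start to an intron over 14.3 kb. Cavin1, which encodes a coat protein of caveolae, had 8.20, 11.7, 9.07 and 20 over 8.33 kb. Myrf, a membrane-tethered transcription factor, had 7.45, 7.71, 20 and 6.41 over 14.3 kb. Each of these loops held 29 to 47 cut sites, far above the median of 12 for short loops in all 4 lists.

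The factor whose lists held the higher values changed from gene to gene. The same value need not mean the same evidence in different lists, so these values do not rank the factors. The anchor shared by the starts of Tk1, the thymidine kinase of DNA synthesis, and Afmid joined the body of Afmid at 20 and 20 in the FOXA1 lists and 7.01 and 10.7 in the HNF4G lists. The anchor of Hmga1, which encodes an architectural chromatin protein, joined the body of the antisense gene Gm49774 at 7.98 and 5.77 with FOXA1 and 20 and 20 with HNF4G. The antisense gene Gm35853 had 20 and 20 with FOXA1 and 7.22 and 6.04 with HNF4G. Sfi1 had 13.1, 9.73, 20 and 8.55, but 23.4% and 19.9% of the 31-base stretches in its anchors were found elsewhere in the genome, where the median anchor had 2.50%. The values of Sfi1 are uncertain for that reason.

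Of the 13 short loops at 20 in all 4 lists, 6 joined neighboring promoters and 3 were of the same-gene class. Myh9 was the only one from a promoter to its own gene body. At a value of 2 or more in every list, same-gene promoters were more frequent, with 47 loops (7.48% of those in all 4 lists) against 30 (3.53%). The loops of neighboring promoters at 20 joined Sdc4, a syndecan, to Sys1 (19.6 kb), Midn, which targets nuclear proteins for degradation, to the cold-inducible RNA-binding gene Cirbp (13.2 kb), Cdk5rap3 to Prr15l (15.4 kb), Ehbp1l1 to Ltbp3, a binding protein of latent TGF-β (15.9 kb), and Lzts2 to Pdzd7 (11.5 kb). The start of Pdzd7 at its anchor was an internal one, and the outermost start lay 12897 bp from the edge of the anchor. The last of the 6 joined Sfi1 to the pseudogene Gm11400 in repeated sequence (19.9% and 41.9%). Kcnk4, a potassium channel gene, joined the shared anchor of Bad, a pro-apoptotic BCL2 family gene, and Gpr137 over 5.72 kb at 11.7, 6.35, 7.88 and 20. The anchor at an internal start of Myo1h joined Kctd10 and Ube3b at 20, 8.27, 12.1 and 7.72.

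The loop of Midn and Cirbp joined chr10:80144880-80154871 to chr10:80157324-80168793. The 250 bases before a RefSeq start (build GRCm38.p6) are shown for both because their loop stood at the ceiling in every list. The Midn stretch (chr10:80148022-80148271, plus strand, between genes) held 14 CG pairs and the Cirbp stretch (chr10:80167921-80168170, plus strand, intron of a longer Cirbp transcript) 31, against a median of 6 over 32817 such stretches. Neither held GATC or the letters of either motif on either strand, so nothing is in capitals. GATC was present in 41.9% of all stretches, the FOXA letters in 3.16% and the HNF4 letters in 5.49%.
Midn: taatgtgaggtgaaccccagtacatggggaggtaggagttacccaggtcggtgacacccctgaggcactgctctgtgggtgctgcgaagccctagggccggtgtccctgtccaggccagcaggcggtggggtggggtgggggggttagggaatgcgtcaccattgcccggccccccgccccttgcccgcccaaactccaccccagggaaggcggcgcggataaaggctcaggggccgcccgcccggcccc
Cirbp: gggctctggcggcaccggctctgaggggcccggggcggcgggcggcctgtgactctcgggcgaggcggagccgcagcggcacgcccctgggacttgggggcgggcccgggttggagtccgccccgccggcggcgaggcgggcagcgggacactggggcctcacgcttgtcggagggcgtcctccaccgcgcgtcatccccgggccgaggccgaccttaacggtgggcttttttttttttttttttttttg

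**Figure D5:**
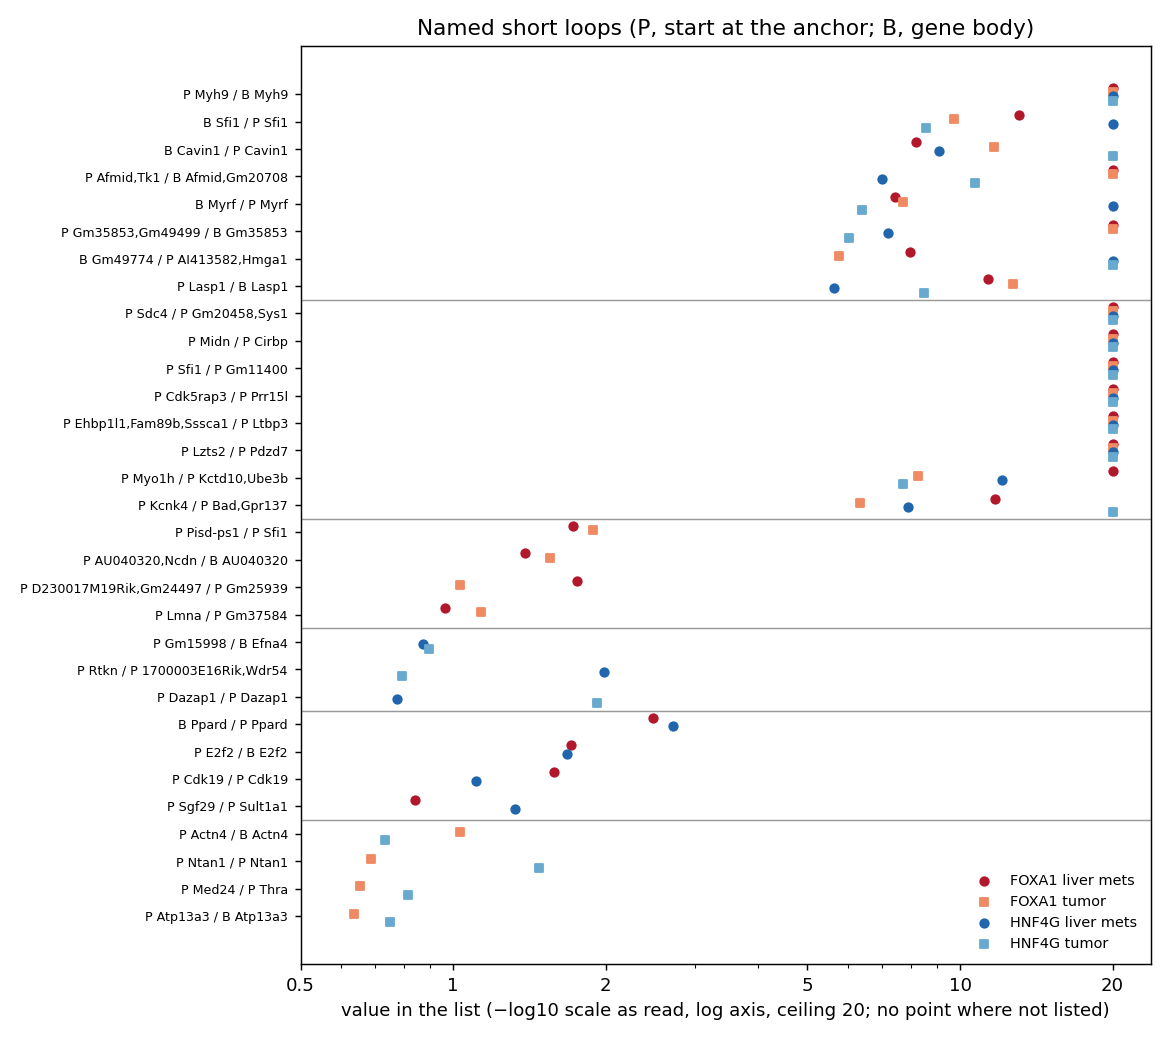
Values of named short loops in the lists that held them (log axis, −log10 scale as read, capped at 20), in blocks from top to bottom for own gene body in all 4 lists, neighboring promoters in all 4 lists, FOXA1 lists only, HNF4G lists only, liver mets lists only and tumor lists only; P marks an anchor at a start and B a gene body. Loops of the upper 2 blocks lie at 5.64 or more, and loops of the lower 4 blocks between 0.638 and 2.71.

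Short loops of 1 factor or 1 line had far lower values than these. In FOXA1 lists only, the start of Lmna, the lamin A/C gene, joined the long noncoding gene Gm37584 over 14.0 kb at 0.963 in liver mets and 1.14 in tumor. The shared anchor of Ncdn and AU040320 joined an intron of AU040320 at 1.39 and 1.55. The highest such loop joined the pseudogene Pisd-ps1 to an internal start of Sfi1 at 1.72 and 1.88, with 66.0% and 22.5% repeated sequence and 1 cut site in its anchors.

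In HNF4G lists only, an internal start of Rtkn joined Wdr54 at 1.99 in liver mets and 0.792 in tumor. An antisense start joined the body of the ephrin gene Efna4 at 0.870 and 0.895, and 2 internal starts of Dazap1 were joined at 0.775 and 1.93.

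Loops in both liver mets lists only included a nuclear receptor gene. Ppard, which encodes a lipid-sensing receptor, had 2.47 with FOXA1 and 2.71 with HNF4G for an internal start and an intron 14.8 kb apart, the pair whose motif windows are shown above (chr17:28255427-28258117 and chr17:28267830-28275344), and neither tumor list held the pair. It was the only named loop of these 4 patterns with a value above 2. An internal start of the cell-cycle factor gene E2f2 joined its gene body at 1.70 and 1.67. The outermost start of E2f2 lay 4499 bp from the edge of the start anchor. Further, 2 anchors at starts of the Mediator kinase gene Cdk19 had 1.58 and 1.11, and an internal start of Sgf29 joined Sult1a1, which encodes a sulfotransferase, at 0.843 and 1.32.

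Loops in both tumor lists only had values of at most 1.48. Actn4, which encodes an actin crosslinker, had 1.03 with FOXA1 and 0.733 with HNF4G for an internal start and an intron. Alternative starts of Ntan1 had 0.689 and 1.48, the Mediator gene Med24 and the thyroid hormone receptor gene Thra had 0.656 and 0.813, and an internal start and an intron of Atp13a3 had 0.638 and 0.751.

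Pairs missing from a single list could have values above 2 in the other 3. Fhl3, a LIM domain gene, was not listed in FOXA1 tumor and had 2.62 with FOXA1 in liver mets and 2.95 and 2.47 with HNF4G over 5.98 kb. Abr, which encodes a regulator of small GTPases, had 4.47, 1.99 and 1.90 for an internal start and was missing from the same list. HNF4G liver mets lacked a pair of Tnks1bp1 starts, one of whose anchors also held an internal start of Ssrp1, a subunit of the FACT histone chaperone (3.55, 3.90 and 3.36 elsewhere), and a pair of Flot1 starts, one of whose anchors also held the start of the immediate early gene Ier3 (2.66, 2.01 and 3.84). HNF4G tumor lacked a pair of anchors that each lay within 2 kb of an internal start of Pear1 (1.87, 3.35 and 1.99). FOXA1 liver mets lacked a pair at starts of Creld1 (1.90, 1.99 and 1.43) and a pair from the anchor of Tnfrsf12a and Cldn6 to intergenic sequence (1.91, 1.41 and 1.47). Such cases were few, as 3 loops of 4751 in exactly 3 lists had a value of 2 or more in each.

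Gene groups were compared by the short loops at their promoter anchors. Of all 21951 protein-coding genes, 10802 had a promoter anchor and 6103 of these (56.5%) a short loop, with 33.1% of their pairs in all 4 lists. Immediate early genes, which respond to growth signals, had a promoter anchor in 29 of 30 cases and a short loop in 24, and 66.2% of their pairs were in all 4 lists. Atf3 led with 6 short loops, 4 of them in all 4 lists, and Nr4a1 had 6 with 3. Fosl1 and Ier3 had 5 each, with 3 in all 4 lists.

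Epithelial structure genes had short loops at 20 of 26 genes with an anchor, and 60.3% of their pairs were in all 4 lists. The tetraspanin Cd9 had 6 with 5 in all 4 lists, E-cadherin (Cdh1) 6 with 4, and Itgb4, which encodes an integrin of hemidesmosomes, 5 with 4. Endodermal and pancreatic transcription factors had short loops at 18 of 23 genes, with 44.1% of pairs in all 4 lists. Spdef had 6 with 2 in all 4 lists, and Cdx2, Ehf and Grhl2 had 3 each. Mesenchymal genes had a promoter anchor in 13 of 21 cases and a short loop in 7, with 50% of pairs in all 4 lists. That share rests on few pairs, since these genes had 7 and 7 short loops in the FOXA1 lists and 8 and 6 in the HNF4G lists. S100a4 had 2 short loops, both in all 4 lists. Fn1, Twist2 and Vim had 1 each, in all 4 lists, and Snai1 and Sparc 1 each, not in all 4.

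Proliferation genes had short loops at 14 of 17 genes with an anchor, with 42.4% of pairs in all 4 lists. Tk1 had 6 with 5 in all 4 lists, Ccnd1 5 with 1, and Birc5 and Ccnd3 3 with 2 each. Ribosomal protein genes had short loops at 41 of 56 genes with an anchor, and their 31.9% of pairs in all 4 lists was near the share of all coding genes. Rpl14 had 5 with 4 in all 4 lists and Rps25 4 with 0. None of 18 genes of other cell types, such as Cpa1, Ptprc and Alb, had a promoter anchor. The lists were picked by hand with earlier results of these data known, so they are descriptions, and nothing particular to them was tested.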

How the data were processed

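Hi-ChIP of FOXA1 and HNF4G was performed in 8 samples, 2 replicates for each of 4 groups. Per the labels and the methods of the study, reads were processed with HiC-Pro (version 3.1.0 in the submitters' processing notes) with default settings for DpnII on mm10, and loops were called with hichipper. The source of the anchors, the minimum of paired reads and the joining of replicates are not given in the sources used here. The authors deposited 1 loop list per group, with a value for each loop that was read here as the −log10 of an adjusted p. This reading rests on the ceiling of 20 and the tied runs alone, and the same value need not mean the same evidence in different lists. The score deposited by the authors beside it rose by 10 with each whole unit of that value in all 384180 loops and was not used further.

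Loops were matched between lists by identical anchors. Genes came from GENCODE M21, and sequences from RefSeq GRCm38. A promoter anchor lay within 2 kb of any annotated start. Shares have Wilson intervals, ratios exact Clopper-Pearson intervals and differences Newcombe intervals, all at 95%. Anchor repeats were counted as 31-base stretches, taken every 20 bases, that occur again in the assembled chromosomes. Python 3.11.15, numpy 2.4.6, pandas 2.3.3 and scipy 1.17.1 were used, and scripts were tested on simulated data. Named loops were those with the highest lowest value over the lists that held them. There were 8 for own gene body and 8 for neighboring promoters in all 4 lists with 1 loop per gene, 4 for each pattern of 1 factor or 1 line, and 2 for each list that lacked a pair, the last kinds with at least 1 promoter anchor. Named members of gene lists were taken from those with the most short loops, at most 4 per list, except for the mesenchymal genes, where more are named. The members, gene lists and rules were chosen with earlier results of these data known. Some items that the rule for named loops and genes would take are not reported here.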

Additional observations from a re-analysis of the deposited data

Results flagged for a closer look

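Point values of the contrast between the lines lay on opposite sides of no change for the 2 factors in 2 measures. The number of short loops at the top value, liver mets to tumor, had a ratio of 2.24 for FOXA1 (76 against 34, 95% interval 1.47 to 3.46) and 0.658 for HNF4G (25 against 38, 0.381 to 1.12), and the interval for HNF4G included 1. The whole lists moved the same way, and FOXA1 had 328 loops of any length at the top value in liver mets against 114 in tumor. Short loops were 23.2% of the FOXA1 loops at that value in liver mets and 29.8% in tumor, and 32.9% and 34.2% of the HNF4G loops. At values of 2 or more the ratio was 1.36 (1.23 to 1.51) for FOXA1 and 0.992 (0.875 to 1.12) for HNF4G. The share of a list that was short differed, liver mets minus tumor, by -1.47 percentage points for FOXA1 (-1.73 to -1.22) and by 1.30 points for HNF4G (0.956 to 1.64). This share also moves with the number of longer loops, and the counts of short loops were higher in liver mets for both factors. Each group had 1 list, and no test of these opposite directions was made.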

How the results depend on the processing

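No paired analysis was possible because each list joined both replicates of its group, and for the same reason no replicate could be left out. Of 58 alternative values, 17 stayed within the counting interval, 40 moved and 1 changed direction. Between lines, liver mets over tumor came to 1.36 with FOXA1 and 0.992 with HNF4G at values of 2 or more, and to 1.02 and 1.03 with 12 or more GATC sites. Sharing, as a percent of the list with fewer short loops at all values, follows for the FOXA1 lines, the HNF4G lines, the tumor factors and the liver mets factors. It was 82.7, 78.4, 81.9 and 82.7 under 10 kb, 64.3, 49.8, 52.6 and 62.5 with values of 2 or more, and 74.3, 65.2, 64.4 and 69.0 with equal numbers of the highest loops. It was 85.5, 81.2, 84.8 and 85.4 with anchors widened by 2 kb and 91.9, 86.5, 90.7 and 92.2 with 12 or more sites. The share of short loops in all 4 lists was 38.6% under 10 kb, 12.7% with values of 2 or more, 29.2% with distance between inner edges, 48.2% with widened anchors, 30.8% without anchors over 20% repeated and 61.1% with 12 or more sites. Own gene body took 20.1% under 10 kb, 20.8% with values of 2 or more and 14.1% with outermost starts. Neighboring promoters took 11.6% under 10 kb, 11.01% where the anchor overlapped the start, 10.8% with coding starts and 12.9% with outermost starts. Pairs in no list were 6.11% with no anchor between, 4.52% with anchors used in all 4 lists, 6.33% without repeated anchors and 0.869% with 12 or more sites. The limits on sites, repeats and outermost starts were chosen after seeing the data. Apart from the smaller sets these settings leave, the cause was not tested.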

Other observations

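Short loops joined anchors into chains. Linked by short loops of any list, 18858 anchors formed 5511 chains, of which 2601 (47.2%) had 2 anchors and 143 had 10 or more. With loops in all 4 lists only, 7223 anchors formed 2611 chains, and the largest had 14 anchors. That chain lay at chr3:89213305-89340453 within a chain of 24 anchors (chr3:89159413-89397389) that held 37 short loops, 18 of them in all 4 lists, and spanned the mucin gene Muc1 and the ephrin genes Efna1, Efna3 and Efna4. Another chain of 24 anchors at chr11:120537703-120730431 held 39 short loops with 17 in all 4 lists and included P4hb, Arhgdia and Mafg. A chain of 24 anchors at chr16:21201289-21390165, with 35 short loops and 12 in all 4 lists, had Ephb3 as its only coding start. The chain of 23 anchors at chr10:79958913-80191637, with 28 short loops and 20 in all 4 lists, included Midn, Cirbp, Stk11 and Gpx4.

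Recurrence varied by chromosome. Of the short loops on chromosome 19, 459 of 962 (47.7%) were in all 4 lists, and on X 5 of 55 (9.09%). Short loops made up 5.10% of distinct loops on chromosome 19 and 11.2% on X. These are values with no test.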
